A study of Oedaleus asiaticus with 9 samples.

Results

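The entries described here are the known miRNA entries of 18 or 19 nt whose family number is 1000 or more, leaving out miR-2788-y. They were chosen by class, length and family number in the deposited table, which gave 78 of its 365 entries, called members in the plots. Of these, 61 were 18 nt and 17 were 19 nt long. The libraries hold small RNA of female *Oedaleus asiaticus*, a grasshopper of Asian steppe grassland, at 3 stages: nymphs of the 3rd instar, nymphs of the 5th instar, and adults, each with 3 libraries (9 in all). The animals were 3 days into each stage (for adults, 3 days after emergence) and were fed normally without treatment. The sources used here do not give the tissue or the number of animals behind a library, so the p-values below rest on sample-to-sample spread that could be technical. Library totals over the listed entries ran from 1462586 to 5309504 counts, and a count of 0 therefore allows a level of up to 0.565 CPM at the greatest depth and 2.05 CPM at the smallest (3 counts, counting error only; CPM are counts scaled to a common library total).

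A miRNA is cut as a duplex from a hairpin, and one strand guides Argonaute to target transcripts mainly through its seed, bases 2 to 8. Family numbers in miRNA databases follow the order of naming, so high numbers hold many families found late, in single species, and at low abundance. Some short entries in such databases have the sequence of other RNAs. The clearest mark of one such source is the end of a mature tRNA: every tRNA receives the letters CCA at its 3′ end after transcription, and small RNAs cut from that end carry them. No genome or tRNA annotation was used here, so an ending in CCA is a description of the letters and not an origin.

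Of the 78 entries, 13 ended in CCA (16.7%). Among all 287 other entries, 6 did (2.09%), and among the 43 others of 18 or 19 nt 4 did (9.30%). Of these 43, the 13 predicted entries included 2 (15.4%), a share close to that of the 78. The 29 known ones with a lower family number or a name included 2 (6.90%). The 13 sequences are shown because they made up 24.96% to 82.7% of the counts of the 78 entries in a library and share more than the ending, with the seed and the final CCA in capitals:
miR-2478-z: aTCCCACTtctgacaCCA
miR-3968-z: aTCCCACTcctgacaCCA
miR-2779-z: aTCCGGCCcgaaggaCCA
miR-7550-z: aTCCGGCCcgaaggaCCA
miR-9993-y: aTCTCGGTgggacctCCA
miR-9995-y: aTCTCGGTggaacctCCA
miR-1260-z: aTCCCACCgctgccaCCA
miR-7975-z: aTCCTGGTcacggcaCCA
miR-10926-z: aTCCCTCCggtgcctCCA
miR-7977-z: tTCCCGGCcatcgcaCCA
miR-4286-z: aCCCCACAcctggcaCCA
miR-7090-x: cTCAGACTtggtacaCCA
miR-9162-z: gCAGATGAcaggaatCCA

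All 13 were 18 nt long, and 9 of them began with ATC, a feature noticed after the sequences were seen. So did 1 of the other 65 and 3 of the 287 entries outside the 78. Of the 6 outside the 78 that ended in CCA, 0 did. The 9 include the 3 pairs of like sequences described next, so they are not 9 separate sequences. Shared seeds joined 3 pairs among the 78 entries, and each pair ended in CCA: miR-2478-z with miR-3968-z, miR-2779-z with miR-7550-z, and miR-9993-y with miR-9995-y. Counted from the 5′ end, miR-2478-z differed from miR-3968-z by T9C and miR-9993-y from miR-9995-y by G11A. The letters of miR-2779-z and miR-7550-z were identical although their counts differed, with 0.718 to 0.824 counts of miR-7550-z per count of miR-2779-z in a library. They are therefore 1 sequence under a pair of names. A further entry, miR-7550-x (tCCGGCCCgaaggaccatt, seed in capitals), held letters 2 to 18 of the same sequence followed by TT. The 5 letters TTCGA, found in the T loop of many tRNAs and searched on the printed strand alone, occurred in 1 of the 78 entries, miR-5978-z, and in 1 of all 365 (0.274%).

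Among the 78 entries, 3 families are known from mammals as overlapping tRNAs, out of 9 such mammalian families looked for. They are miR-1260, miR-7975 and miR-7977, each with 1 entry, and all 3 entries ended in CCA. Of 13 high-numbered families annotated in insects, 9 were in the table and 1 of these, miR-2779, had an entry among the 78. The 14 entries of the insect families included 10 that could be tested. Of these 10, 1 was called lower in the 5th instar than in the 3rd (1.68% of all tested entries were called, in either direction). In adults 1 was called lower than in the 5th instar (1.12% of all) and 2 lower than in the 3rd (3.91% of all). In each comparison 0 were called higher. The limit for a call is given below. Calls this few show no common change of these families, whose list was drawn up with earlier results known. The tested entry miR-2779-z was not among the entries called. A U at the 5′ end, common in Argonaute-bound miRNAs, was present in 18 of the 78 (23.1%, read as T) and in 136 of the other 287 entries (47.4%). Among the 43 others of 18 or 19 nt it was present in 14 (32.6%), and among the 13 predicted entries of that length in 3 (23.1%). The median content of G and C was 55.6% in the 78 and 47.4% in the others, 50% in the others of 18 or 19 nt and 52.6% in the predicted ones of that length.

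These 78 entries were rare. Together they held 0.0333% ± 0.0160 of the listed counts among 3rd instars, 0.0871% ± 0.0453 among 5th instars and 0.0638% ± 0.0209 among adults (SD, n = 3 each). A single library's share ran from 0.0218% to 0.139%, and the share of the highest library, 5th instar 3, had a Wilson 95% interval of 0.135% to 0.144%. Without that library the 5th instar averaged 0.0609%, below the adult mean. The median entry averaged 0.914 CPM over the 9 libraries, against 8.31 CPM for the 213 other known entries. At least 10 CPM were reached by 13 entries, while 42 averaged under 1 CPM.

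Detection was patchy. A count in every library was found for 20 of the 78 entries (9 of the 13 ending in CCA and 11 of the other 65), against 142 of the 213 other known entries. Fewer than 5 libraries held a count for 25 entries, and 42 entries had fewer than 10 counts in their best library. The number detected was 50, 45 and 47 for the 3rd instar, 53, 45 and 56 for the 5th instar, and 41, 64 and 65 for adults. The deepest library, 3rd instar 3, thus detected fewer entries than 5th instar 1 and 3, which had less than its depth, while the lowest number came from the shallowest library, adult 1.

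**Figure D1:**
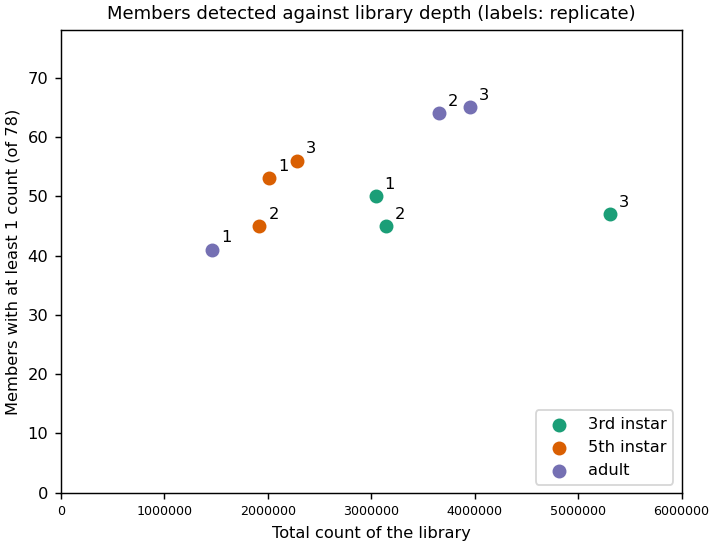
Number of the 78 entries with at least 1 count (vertical axis) against the library's total count (horizontal axis), 1 point per library with its replicate number. The 3rd instar libraries detected 45 to 50 entries at 3042011 to 5309504 counts, and adult 2 and adult 3 detected 64 and 65 at 3651172 and 3955332 counts.

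Some libraries stood apart for these entries. Among the 32 entries with at least 30 counts in all, adult 2 held the highest normalised level of 16, including all 9 that ended in CCA. Library 5th instar 3 held nearly all of miR-8503-z and miR-8516-z.

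The 9 tested entries ending in CCA had counts in every library and averaged highest in adults, with adult 2 highest for each. Their most abundant entry was miR-2478-z, a name first given in cattle. Its level in the 3 libraries of each stage was 80.9, 144 and 107 normalised CPM in 3rd instars, 145, 211 and 148 in 5th instars, and 124, 289 and 198 in adults. The 5th instar libraries all lay above the 3rd instar ones, whereas adults overlapped both nymphal stages with adult 1 the lowest adult library. Its close relative miR-3968-z, named in mouse, was at 8.02, 17.5 and 15.0 CPM in 3rd instars, 18.9, 34.7 and 18 in 5th instars, and 16.5, 39.8 and 25.6 in adults. Here too the 5th instar lay entirely above the 3rd, and adult 1 lay below 3rd instar 2.

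The sequence named miR-2779-z and miR-7550-z was the next most abundant with this ending. As miR-2779-z, of a family annotated in insects, it was at 27.4, 46.6 and 42.5 CPM in 3rd instars, 37.8, 53.2 and 46.6 in 5th instars, and 45.7, 87.3 and 63.2 in adults. As miR-7550-z it was at 21.1, 38.4 and 33.1 CPM in 3rd instars, 27.1, 40.4 and 35.7 in 5th instars, and 36.4, 70.9 and 46.5 in adults. Under both names adult 2 was highest and 3rd instar 1 lowest, and the stages overlapped. The extended form miR-7550-x, named after its values were seen, was at 4.34, 7.09 and 7.49 CPM in 3rd instars, 9.69, 10.4 and 8.64 in 5th instars, and 7.94, 15.5 and 15.4 in adults. For it both later stages lay above the 3rd instar without overlap.

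The remaining tested entries with this ending had lower levels than miR-2478-z. miR-9993-y was at 18.4, 43.3 and 27.3 CPM in 3rd instars, 24.2, 36.1 and 22.2 in 5th instars, and 39.7, 78.9 and 48.2 in adults. It was the one entry of the group whose adult libraries all lay above those of the 5th instar. Next was miR-1260-z, which in human overlaps a tRNA, at 7.35, 16.8 and 15.0 CPM in 3rd instars, 11.1, 9.50 and 14.3 in 5th instars, and 9.92, 36.1 and 20.2 in adults. The other families that overlap tRNAs in human stood lower still: miR-7977-z averaged 7.83 ± 2.95, 6.44 ± 1.62 and 12.1 ± 7.97 CPM, and miR-7975-z 3.84 ± 1.38, 3.23 ± 1.94 and 6.93 ± 3.98 CPM, in the 3rd instar, 5th instar and adult (SD, n = 3). miR-10926-z averaged 3.34 ± 1.25, 4.25 ± 1.40 and 5.09 ± 3.44 CPM at the same stages. All 3 had their lowest adult value in adult 1 and their highest level of all in adult 2. The other 4 entries with this ending, miR-7090-x, miR-9995-y, miR-4286-z and miR-9162-z, were too rare to test, with 9 to 29 counts each. Of these, miR-7090-x and miR-9162-z had 0 counts in the 3rd instar, and miR-9995-y averaged 1.05 CPM in the 5th instar and 0.890 CPM in adults.

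**Figure D2:**
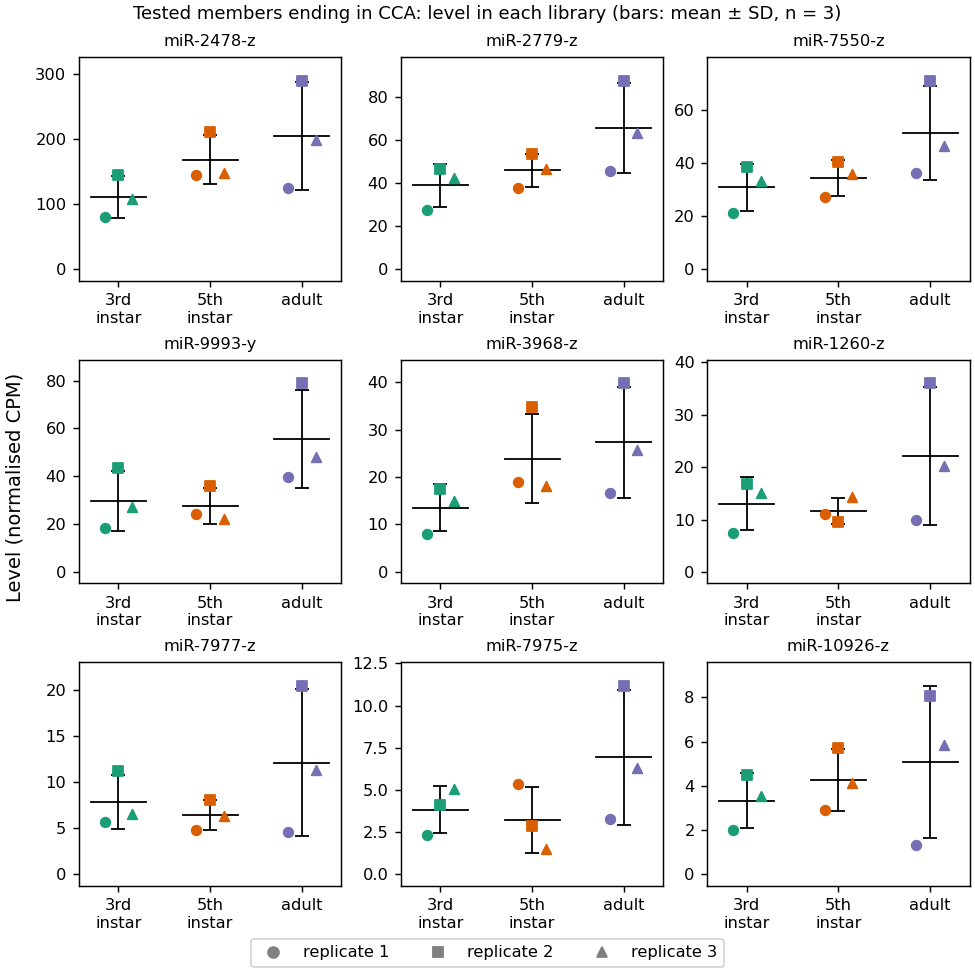
Level in normalised CPM (vertical axis, a separate scale in each panel) of the 9 tested entries ending in CCA, by stage, with 1 point per library, its replicate number shown by the marker, and bars for the mean ± SD of 3 libraries. In every panel adult 2 is the highest point, such as 289 CPM for miR-2478-z, while adult 1 lies among the nymphal values for most entries.

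Relative to their own size, the shares of the most abundant entries ending in CCA varied less between libraries than those of the rare ones. Of the counts of all 13, miR-2478-z made up 42.0% to 52.4% in a library, miR-2779-z 13.2% to 16.6%, miR-7550-z 9.52% to 12.9% and miR-9993-y 7.43% to 14.0%. The range was 4.62% to 8.62% for miR-3968-z, 2.36% to 5.86% for miR-1260-z, 1.63% to 3.42% for miR-7977-z, 0.504% to 1.98% for miR-7975-z and 0.465% to 1.42% for miR-10926-z. miR-7090-x, absent from some libraries, reached 1.70%. The summed level of the 13 was 174, 328 and 256 CPM in 3rd instars, 285, 402 and 298 in 5th instars, and 285, 649 and 429 in adults. The stage means were 252 ± 76.9, 329 ± 64.2 and 454 ± 184 CPM, and the adult mean was 357 CPM without adult 2. Without miR-2478-z they were 141 ± 45.5, 161 ± 27.3 and 250 ± 102 CPM, or 195 CPM in adults without adult 2. The 6 entries outside the 78 that ended in CCA summed to 34.5 ± 12.8, 37.9 ± 9.01 and 61.3 ± 12.7 CPM in the same order. In bulk RNA, fewer cells making an RNA and less of it per cell cannot be told apart.

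Adults and the 3rd instar, the ends of the series, were compared for a change through development. All 9 tested entries ending in CCA were higher in adults, with log2 fold changes of 0.67 to 1.02, though 0 of them passed the test (3.91% of all 179 tested entries did). miR-2478-z averaged 204 ± 82.5 CPM in adults and 111 ± 31.9 CPM in the 3rd instar, a 1.84-fold difference (log2 fold change 0.88 ± 0.31 SE, adjusted p = 0.0991). miR-3968-z averaged 27.3 ± 11.7 CPM in adults and 13.5 ± 4.92 in the 3rd instar (1.02 ± 0.41 on the log2 scale, adjusted p = 0.104). miR-9993-y averaged 55.6 ± 20.6 CPM in adults and 29.7 ± 12.6 in the 3rd instar (0.91 ± 0.36 on the log2 scale, adjusted p = 0.104). The remaining 6 had adjusted p between 0.102 and 0.427. For each of the 9, at least 1 adult library lay within the range of the 3rd instar ones or below it.

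The median log2 fold change of these 9 was 0.77, against 0.05 over all tested entries, 54.2% of which were higher in adults. An unadjusted p under 0.05 was reached by 5 of the 9, all higher in adults, as by 22.3% of all tested entries in that direction. The 9 are 8 sequences and share their pattern over libraries, so they are not 9 separate observations. Without adult 2 the 9 were still higher in adults, with a median of 0.46, and 0 reached an unadjusted p under 0.05. The log2 fold change was then 0.57 for miR-2478-z, 0.68 for miR-3968-z and 0.60 for miR-9993-y. That number was also 0 without 3rd instar 1, 3 without 3rd instar 3 and 7 without adult 1, where miR-2478-z passed the test. Scaling by library totals alone moved the median of all tested entries by 0.18 here. The median of the 9 was then 0.94, and miR-2478-z, miR-9993-y and miR-3968-z passed. With the replicate number as a block in edgeR's test, miR-2478-z had an adjusted p of 0.0212. Its log2 fold change of 0.85 was below the limit of 1 for a call. With the block, miR-2478-z and miR-9993-y passed the test over the 3 stages. The 3 tested entries with this ending outside the 78 were higher in adults as well, with a median of 0.83.

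**Figure D3:**
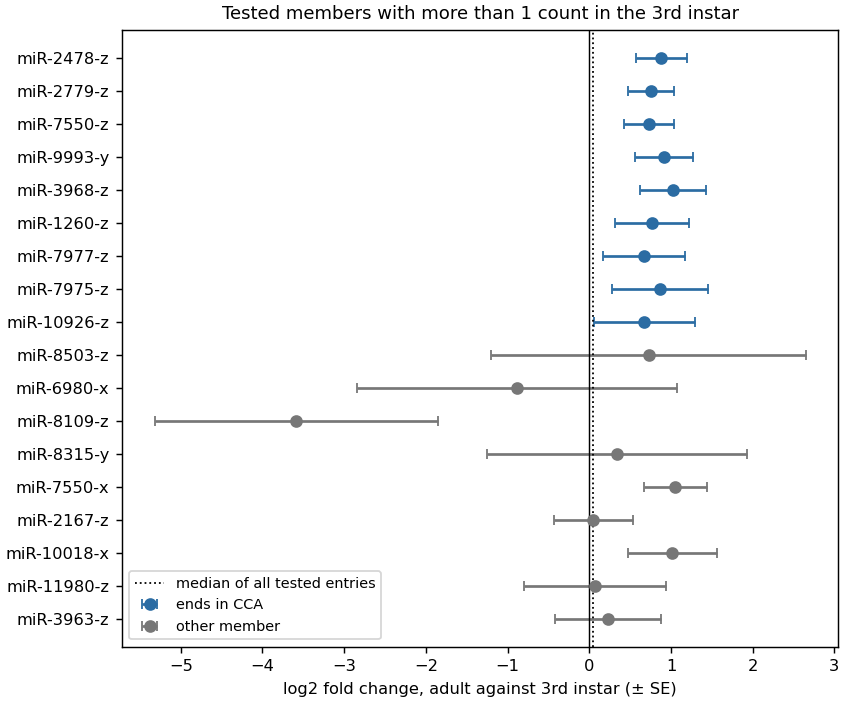
Log2 fold change of adults against the 3rd instar (horizontal axis, ± SE) for the 18 tested entries with more than 1 count in the 3rd instar, those ending in CCA on top. The 9 ending in CCA lie between 0.67 and 1.02, to the right of the median of all tested entries at 0.05, while the other 9 scatter between -3.59 and 1.05.

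In the 5th instar against the 3rd, 5 of the 9 were higher and 4 lower (50.3% of all tested entries were higher). Their median log2 fold change was 0.16, against 0.0036 over all tested entries, and 0 passed the test (1.68% of all). The highest was miR-3968-z, at 23.9 ± 9.37 CPM in the 5th and 13.5 ± 4.92 in the 3rd instar (0.82 ± 0.41, adjusted p = 0.287). Scaling by library totals alone moved the median of all entries by 0.29 and made all 9 higher, which turned the sign of miR-9993-y, miR-1260-z, miR-7977-z and miR-7975-z. In adults against the 5th instar all 9 were higher (58.1% of all tested entries were), with a median of 0.58 against 0.08 over all tested entries, and 0 passed (1.12% of all). Totals alone moved the median of all entries by -0.11 there and left the 9 higher. miR-9993-y averaged 55.6 ± 20.6 CPM in adults and 27.5 ± 7.52 in the 5th instar (1.02 ± 0.36, adjusted p = 0.296). Without adult 2, 6 of the 9 were higher in adults than in the 5th instar, and the median was 0.26.

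Another group was defined by absence. Of the 78 entries, 17 had 0 counts in all 3 libraries of the 3rd instar and counts in both later stages. Absence from the 5th instar alone was seen for 3 entries, and absence from adults alone for 4. Among the 287 entries outside the 78 the same numbers were 9 for the 3rd instar, 10 for the 5th instar and 5 for adults. At a mean level under 1 CPM, absence from the 3rd instar alone was seen for 10 of 42 entries here (23.8%) and for 8 of 93 elsewhere (8.60%). At 1 to 10 CPM it was seen for 6 of 23 here and for 1 of 79 elsewhere, and at 10 CPM or more for 1 of 13 and 0 of 115. The 3rd instar libraries held 3042011 to 5309504 counts, and those of the 5th instar were shallower, with 1918962 to 2282357.

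Only 4 of the 17 could be tested, and miR-6216-z, tested as well, had 1 count in the 3rd instar. The 5 sequences are shown because the 3rd instar held at most 1 count of each, with seeds in capitals, and no seed is shared among them:
miR-6216-z: cACAGAGGccgtaggaga
miR-5609-x: cAGTACCGatccttgaacc
miR-7197-y: gGTCGAGTtggattggac
miR-10136-y: tCAGAACGggtagctgga
miR-10374-y: tTTGTCTAaattgtttga

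The most abundant, miR-6216-z, a name from rat, had 0.334, 0 and 0 CPM in 3rd instars, 104.2, 0 and 100.7 CPM in 5th instars, and 0, 24.2 and 68.4 CPM in adults. It was high in 2 of 3 libraries of each later stage and without a count in the others, so every pair of stages overlapped. Pooled over libraries, its level in the 5th instar was 722 times that in the 3rd (exact 95% interval 129 to 28575, counting error only), and in adults 430 times (76.7 to 17025). Those intervals do not cover the spread between libraries. Without 3rd instar 3 the ratios were 401 and 239, without adult 3 the adult ratio was 168, and without 3rd instar 1, which held the 1 count, the level was at least 170-fold higher in the 5th instar and at least 101-fold higher in adults.

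The other 4 had 0 counts in the 3rd instar, which allows up to 0.294 CPM over the pooled stage (3 counts over the group). miR-5609-x was at 17.9, 0.475 and 12.8 CPM in the 5th instar and 0, 45.4 and 15.2 CPM in adults. That is at least 35.9-fold higher in the 5th instar and at least 78.8-fold higher in adults, from pooled counts. Such a bound, here and for the other entries, allows for the counting error of the 3rd instar alone. It leaves out that of the later stage and the spread between libraries. miR-7197-y was at 19.9, 0 and 17.3 CPM in the 5th instar and 5.95, 22.1 and 5.21 CPM in adults, at least 43.3-fold and 37.9-fold higher. Its adult libraries all held counts, while 5th instar 2 held none.

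miR-10136-y was at 10.7, 2.85 and 2.25 CPM in the 5th instar and 10.6, 0 and 12.6 CPM in adults, at least 16.9-fold and 27.0-fold higher than in the 3rd. For this entry the library without a count was adult 2, the one highest for the entries ending in CCA. miR-10374-y was at 0, 7.60 and 2.25 CPM in the 5th instar and 0.662, 10.3 and 5.65 CPM in adults, at least 10.96-fold and 21.9-fold higher. The library without a count was then 5th instar 1, one of the 2 highest for miR-6216-z, so the 5 entries were not all missing from the same libraries. Absence was shared in part. Library 5th instar 2 held 0 counts of miR-6216-z and miR-7197-y and 1 of miR-5609-x, and adult 1 held 0 of miR-6216-z and miR-5609-x.

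The bounds moved with single libraries, a setting chosen after the data were seen. Without 3rd instar 3, the deepest library of its stage, the bounds in the 5th instar were 19.9-fold for miR-5609-x, 24.1-fold for miR-7197-y, 9.41-fold for miR-10136-y and 6.09-fold for miR-10374-y, and those in adults were 43.8-fold, 21.1-fold, 14.99-fold and 12.2-fold in the same order. Without adult 2 the adult bound was 39.0-fold for miR-5609-x, 18.4-fold for miR-7197-y and 41.2-fold for miR-10136-y. Without adult 3 it was 57.6-fold for miR-7197-y and 11.5-fold for miR-10136-y. In the 5th instar, the bound was 8.57-fold for miR-10136-y without 5th instar 1 and 4.32-fold for miR-10374-y without 5th instar 2.

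**Figure D4:**
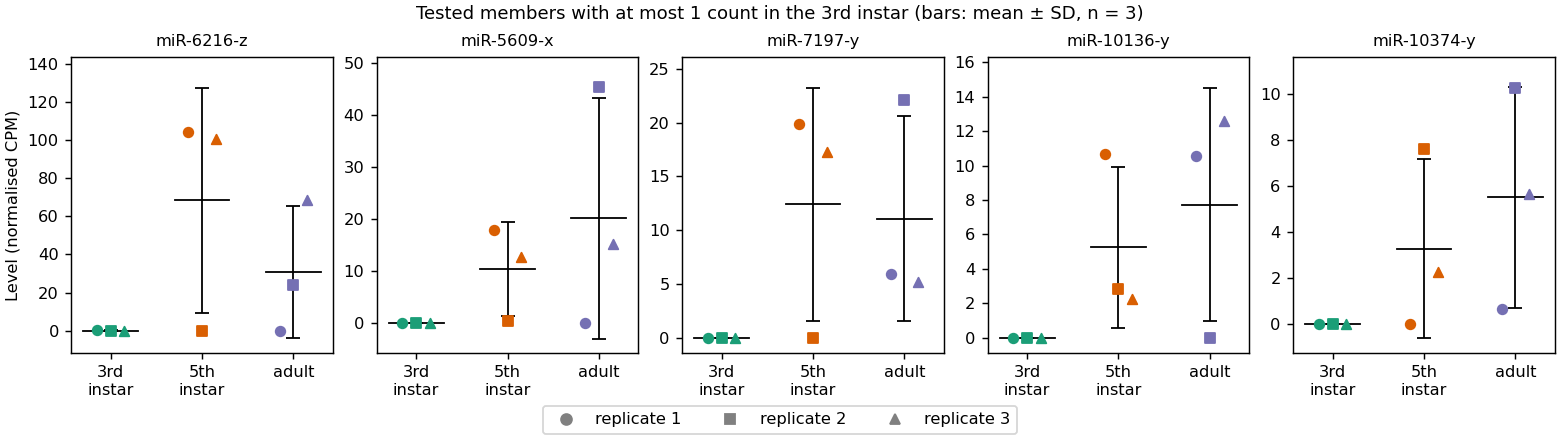
Level in normalised CPM (vertical axis, a separate scale in each panel) of the 5 tested entries with at most 1 count in the 3rd instar, by stage, with 1 point per library, its replicate number shown by the marker, and bars for the mean ± SD of 3 libraries. The 3rd instar points lie at 0 apart from 0.334 CPM for miR-6216-z, and each entry has at least 1 later library without a count.

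None of the 5 passed edgeR's test, the smallest adjusted p being 0.0659 for miR-10374-y in adults against the 3rd instar. In that comparison the others had adjusted p of 0.0991 (miR-10136-y), 0.102 (miR-7197-y) and 0.122 (miR-5609-x and miR-6216-z). For the 5th instar against the 3rd they lay between 0.195 and 0.269. The 5 were picked for their low 3rd instar counts and passed the filter through the later stages, so tests against the 3rd instar describe them and are no independent support for the pattern. DESeq2 called all 5 in the 5th instar against the 3rd, and 4 of them, without miR-10374-y, in adults against the 3rd. Leaving out 1 library made calls in edgeR as well: without 5th instar 2, miR-7197-y passed in both comparisons with the 3rd instar, and without adult 2, miR-10136-y did. miR-10374-y passed in adults against the 3rd instar without 5th instar 1 and without 5th instar 2, as well as with library totals alone and with the replicate number as a block. Adults and the 5th instar overlapped for all 5 (adjusted p 0.816 to 0.985).

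The other 13 of the 17 entries had 4 to 29 counts each over all libraries. miR-4786-y and miR-11933-y, named for sharing letters, had 12 letters in common (letters 5 to 16 of miR-4786-y). Both were found in 5th instar 1, adult 2 and adult 3 and in no other library. Their counts there were 16, 7 and 5 for miR-4786-y and 14, 5 and 3 for miR-11933-y. By library, counts of the 17 were found for 12, 4 and 12 entries in the 5th instar and for 9, 14 and 16 in adults.

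A further group rested on single libraries. Of the 23 entries without the CCA ending that had at least 30 counts, 4 had over 50% of their summed level in 1 library. This was so for 0 of the 9 with the ending, whose highest library held 19.4% to 26.6%, and for 2 of 188 entries outside the 78 (1.06%). The most extreme were miR-8503-z and miR-8516-z, shown because one lies within the other (seeds in capitals):
miR-8503-z: gTAGCGGCgagcgaacagg
miR-8516-z: tAGCGGCGagcgaacagg

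The shorter miR-8516-z is miR-8503-z without its first base, so the pair differ in seed while sharing 18 letters. miR-8503-z was at 2.67, 9.70 and 4.19 CPM in 3rd instars, 11.1, 3.80 and 561 in 5th instars, and 21.2, 3.42 and 4.56 in adults. miR-8516-z was at 1.34, 3.36 and 1.10 CPM in 3rd instars, 0.969, 0.950 and 118 in 5th instars, and 4.63, 0.932 and 1.30 in adults. Both were thus high in 5th instar 3, which held 90.2% and 89.0% of their summed levels. In that library miR-8503-z made up 46.9% of the counts of all 78 entries. Between the 5th instar and the 3rd, miR-8503-z differed by 5.13 ± 2.07 on the log2 scale (adjusted p = 0.269), and by 0.47 without 5th instar 3. Between adults and the 5th instar it differed by -4.41 ± 2.01 (adjusted p = 0.469), and by 0.29 without that library. The summed level of the 65 entries without CCA was 897 CPM in 5th instar 3, its highest in any library.

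**Figure D5:**
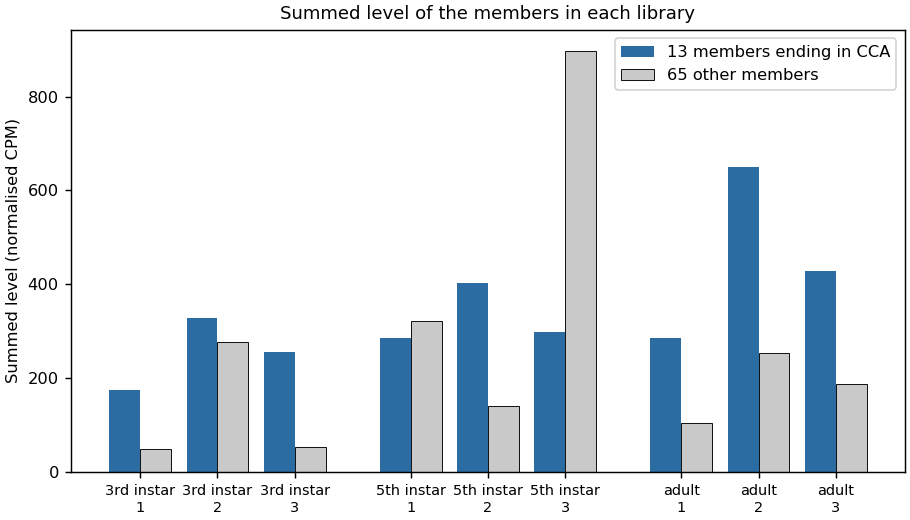
Summed level in normalised CPM (vertical axis) in each library of the 13 entries ending in CCA (dark bars) and of the 65 other entries (light bars). The light bar reaches 897 CPM in 5th instar 3 and the dark bar 649 CPM in adult 2, and the 2 kinds of bar do not peak in the same library.

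Library 3rd instar 2 held the highest level of other entries. miR-8109-z (cGCGTGCCggccgggggac), named after its values were seen, had 87.3 CPM there and 0.376 to 8.07 CPM in the other 8 libraries, so that 76.8% of its summed level lay in that library. miR-6980-x was at 4.68, 107.1 and 0.882 CPM in 3rd instars, 43.6, 22.3 and 0 in 5th instars, and 6.62, 44.8 and 8.47 in adults, with 44.9% of its summed level in 3rd instar 2 and a spread within stages as wide as that between them (adjusted p 0.801 to 0.995 in the 3 comparisons). Without 3rd instar 2 its difference between adults and the 3rd instar was 2.84 on the log2 scale, against -0.88 with it. The highest values of miR-6980-x and miR-8109-z both lay in 3rd instar 2, and the summed level of the entries without CCA was 276 CPM there against 48.1 and 53.3 in the other 3rd instar libraries. miR-8315-y, also named after its values were seen, was at 33.4, 41.8 and 0 CPM in the 5th instar, against 0.668 to 6.71 CPM in the 3rd. Without 5th instar 3 it passed the test over the 3 stages. A single library held all counts of miR-1191-y (22 counts, 5th instar 3) and of miR-2151-x (21 counts, adult 2).

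The other tested entries differed in their spread. miR-2167-z averaged 6.21 ± 0.923 CPM in 3rd instars, 5.02 ± 2.73 in 5th instars and 6.37 ± 1.90 in adults, and had the lowest coefficient of variation over libraries among the 78 entries with at least 30 counts, 31.3%. miR-10018-x averaged 2.88 ± 0.203, 5.47 ± 2.43 and 5.67 ± 3.03 CPM in the same order, with every 5th instar library above the 3rd instar ones (log2 fold change 0.94 ± 0.55, adjusted p = 0.367). miR-3406-x, which was too rare to test, shared 14 letters with miR-2-y of the K-box family, which represses transcripts carrying the K box in flies. A predicted entry of 20 nt or more contained the whole of miR-1692-z, so reads could have been counted under either.

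In all, 23 of the 78 entries passed the filter on low counts and were tested, among them 9 of the 13 ending in CCA. An entry that was high in 1 stage alone could pass through that stage, so these 23 do not stand for the 78. An adjusted p under 0.05 with an absolute log2 fold change above 1 in edgeR's quasi-likelihood test was the limit for a call. In the 5th instar against the 3rd, 0 of the 23 were called, against 1.68% of all 179 tested entries. An unadjusted p under 0.05 was reached by 5 (17.3% of all), and DESeq2 called 5 (5.59% of all). All 5 DESeq2 calls were entries with at most 1 count in the 3rd instar, which passed the filter through the later stages. Those at an unadjusted p under 0.05 were of this kind too, apart from miR-8503-z. These counts are therefore no sign of more change among the members. In adults against the 5th instar 0 were called (1.12% of all), 1 reached an unadjusted p under 0.05 (10.1% of all) and DESeq2 called 0 (1.12% of all). In adults against the 3rd instar, which is also the test of a linear trend over equally spaced stages, 0 were called (3.91% of all), 11 reached an unadjusted p under 0.05 (35.8% of all) and DESeq2 called 4 (8.94% of all). Those 4 DESeq2 calls were again entries with at most 1 count in the 3rd instar, and the 11 included all 5 such entries. The test for any difference over the 3 stages called 0 of the 23 (4.47% of all), with 4 at an unadjusted p under 0.05 (24.6% of all), while DESeq2 called 2 (12.8% of all). The 4 at an unadjusted p under 0.05 were miR-9993-y, miR-7197-y, miR-10136-y and miR-10374-y. All but miR-9993-y had 0 counts in the 3rd instar, and the 2 DESeq2 calls were miR-10136-y and miR-10374-y.

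By direction, 21 of the 23 were higher in adults against the 3rd instar and 2 were lower, and the median was 0.77 on the log2 scale (54.2% of all tested entries were higher). The direction of 5 of the 21 followed from the filter, since they had at most 1 count in the 3rd instar. Of the other 18, 16 were higher in adults and 2 lower (median 0.73), while the 5th instar against the 3rd split them into 9 higher and 9 lower (median 0.025). The 2 lower ones were miR-8109-z and miR-6980-x. In the 5th instar against the 3rd, 14 were higher and 9 lower (median 0.35), and in adults against the 5th instar 17 were higher and 6 lower (median 0.41). The medians were the same with the 4 entries without a count in the 3rd instar set at their bounds. Adult libraries lay wholly above those of the 3rd instar for 3 of the 23 (16.2% of all tested entries) and wholly below for 0 (15.1%). Of these 3, miR-7197-y and miR-10374-y had 0 counts in the 3rd instar and passed the filter through the later stages. The 5th instar lay wholly above the 3rd for 6 (14% of all) and wholly below for 0 (15.1%). Of these 6, miR-5609-x and miR-10136-y were of the same kind. Both counts above the 3rd instar are therefore not like for like with the shares of all entries. Adult libraries lay wholly above those of the 5th instar for 1, miR-9993-y (8.94%), and wholly below for 0 (5.03%). Stage means ran upward from the 3rd instar through the 5th to the adult for 10 of the 23, 5 of them ending in CCA. The other 5 included miR-5609-x, miR-10136-y and miR-10374-y, for which a lowest 3rd instar followed from the filter. The share of all tested entries with this order was not computed, so the count shows no trend particular to these entries.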

How the data were processed

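The deposited file lists entries with raw counts and TPM per library, per the file headers. Small RNA was size-selected on a gel, per the labels' protocols. No aligner, counter or reference is named in the sources used here. In the deposited TPM, counts are scaled to a library total without regard to length, and 0 is written as 0.01. It served for an alternative total (listed counts were 97.2% to 98.6% of it). The reads have no molecular identifiers, so counting error alone is covered by intervals and floors.

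Counts of all 9 libraries were fitted over the whole table with edgeR 4.0.16 in R 4.3.3 (TMM factors of 0.854 to 1.17, filter by stage, robust quasi-likelihood test, Benjamini-Hochberg adjustment over 179 entries). Normalised CPM uses these factors. The SE of a fold change (log2) is its size over root F. The procedure was tested on simulated counts. Named are the 10 most abundant members, tested members ending in CCA, and members called or with an unadjusted p under 0.05 over the 3 stages (16 in all). Others were named for their sequence or after their values were seen. The 78 entries (members) and the lists were chosen with earlier results of these data known. The list of families overlapping tRNAs had 3 entries, each tested and not called. The U2 RNA family miR-1246 had 0 entries. Alternatives were DESeq2 1.42.0, other scalings and filters, pairs of stages, a replicate block, summed sequences, known entries only, and each library left out.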

Additional observations from a re-analysis of the deposited data

How the results depend on the processing

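The number of members called was 0 in each comparison, and stayed at 0 with RLE factors, with the 5 most abundant entries taken out of the totals, without or with a stricter filter, with an adjusted p alone, identical sequences summed and known entries only. For the 5th instar against the 3rd it was 5 with DESeq2 and 0 to 1 with a library left out. For adults against the 3rd it was 4 with DESeq2, 5 with library totals alone, 1 with only these 2 stages, 1 with the replicate block and 0 to 2 with a library left out. With the block, 6 of 23 tested members had an adjusted p under 0.05 there, against 0 in the main fit, and 1 also met the fold limit. Over the 3 stages the number called was 2 with DESeq2, 3 with the block and 0 to 1 with a library left out. For adults against the 5th instar it was 0 in every setting run. The cause of these changes was not tested. The correlation of deviations between same-numbered libraries was -0.23 to 0.42, over 0.1 for 5 of 9 pairs. Between differently numbered ones it ran from -0.43 (3rd instar 2 with 5th instar 3) to 0.28 (5th instar 2 with adult 1). The highest values were same-numbered, 0.42 for 3rd instar 3 with 5th instar 3 and 0.32 for 3rd instar 2 with 5th instar 2. Whether replicate numbers pair libraries was not settled.

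Of 832 recomputed fold changes of named members, 13 passed newly and 7 changed sign under other settings, and 7 passed newly and 24 changed sign with a library left out. With library totals alone, the 5th instar against the 3rd turned positive for miR-9993-y (0.20), miR-1260-z (0.16), miR-7977-z (0.038) and miR-7975-z (0.0022). With the replicate block miR-6980-x turned positive in the 5th instar against the 3rd (0.29), adults against the 5th (0.25) and adults against the 3rd (0.55).

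With a library left out, the lowest and highest values of those that changed sign were as follows. For the 5th instar against the 3rd they were -0.0061 and 0.35 for miR-7550-z, -0.33 and 0.26 for miR-9993-y, -1.54 and 3.02 for miR-6980-x, -0.40 and 0.043 for miR-1260-z, -0.43 and 0.063 for miR-7977-z, and -0.79 and 0.11 for miR-7975-z. Between adults and the 5th instar they were -0.071 and 0.52 for miR-2478-z, -5.59 and 0.29 for miR-8503-z, -1.52 and 0.71 for miR-6980-x, -0.18 and 0.56 for miR-3968-z, -1.17 and 0.37 for miR-7197-y, -0.11 and 1.56 for miR-10136-y, and -0.13 and 0.69 for miR-10926-z. Between adults and the 3rd instar they were -0.43 and 1.27 for miR-8503-z, and -2.25 and 2.84 for miR-6980-x.

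The members' share of counts was 0.119%, 0.240% and 0.203% in the 3rd instar, 5th instar and adult without the most abundant entry of the table. With at least 10 counts required, 7 members were detected in every library. Endings in CC or CCA were carried by 26.9% of members, 20.9% of the other entries of 18 or 19 nt and 11.8% of all entries. Among the predicted entries of 18 or 19 nt the share was higher, at 30.8%. Depth limits the 42 members under 1 CPM, all below the lowest mean tested, 2.94 CPM.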
